A study of Mus musculus with 18 samples.

Results

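The genes of the small ribosomal subunit proteins were followed in primary mouse astrocytes exposed to inflammatory cytokines. Members were the genes whose symbol is Rpsa, or Rps followed by a number and at most a letter and a further digit, which leaves out the S6 kinase genes (Rps6ka, Rps6kb) and pseudogenes. This gave 33 genes of the 12205 in the authors' deposited table. The rule used no measured value, but it was set with earlier results of these data known.

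Treated cells were primary astrocytes from newborn C57BL wild-type mice, with males and females pooled, given TNFα (20 ng/ml) together with IL-1β (0.25 ng/ml) for 24 h after 96 h of culture, or for 48 h after 72 h. Untreated cells of the same origin were harvested after 120 h. Freshly thawed cells were plated at 1300000 per dish in the same medium in all groups. One portion of a lysate went to RNA-seq, a measure of mRNA amount, and another to ribosome profiling, which sequences the mRNA fragments of 26 to 34 nt that ribosomes shield from RNase I (footprints). Each of the 6 groups had 3 libraries, from batches named A, B and C, 18 libraries in all.

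The small (40S) subunit of the cytosolic ribosome binds mRNA and decodes it. Its head and its body with the platform move against each other as mRNA is threaded between them. The mRNAs of nearly all ribosomal proteins start with a C followed by a run of pyrimidines, the 5′ terminal oligopyrimidine (TOP) motif, through which mTORC1 and the RNA-binding protein LARP1 control their translation together. In many cells this class is moved onto or off ribosomes as a group, with little change in mRNA amount.

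For each gene the table gives a single log2 value against untreated cells for RNA, for footprints and for translation efficiency (footprints per RNA), at 24 h and at 48 h. No library has values of its own here, so depth is unknown and no difference could be tested against the spread between batches. "Higher" and "lower" therefore describe signs and sizes alone, and a gene is called past the threshold at a log2 value of at least 1 (doubled) or at most -1. Cell type markers could be looked up as changes and not as levels, so the makeup of the cultures was not tested. All 9 astrocyte markers were listed. Their RNA values in the authors' deposited table ran from -2.69 to 2.17 at 24 h and from -3.14 to 2.28 at 48 h. Lower by at least 1 were 5 at each time, against 9.55% and 10.3% of all genes. Higher by at least 1 were 2 at 24 h and 1 at 48 h, against 7.54% and 8.11%. Gfap, the astrocyte filament gene, was at -1.79 and -2.11 in the authors' deposited table. The highest were Slc1a2, at 2.17 and 2.28, and Slc1a3, at 1.05 and 0.97, in the authors' deposited table. All 6 fibroblast and mural markers were listed, with RNA from -3.01 (Acta2) to 4.16 (Dcn) at 24 h and from -3.90 to 5.73 for the same genes at 48 h in the authors' deposited table. Of the microglia and macrophage markers 3 of 8 were listed, with Adgre1 at 0.57 at 24 h and 7.55 at 48 h in RNA in the authors' deposited table. The other listed genes, Cd68 and Tmem119, had RNA values above 0 at both times that were lower at 48 h than at 24 h. At 24 h Cd68 was the only one of the 3 past the threshold in RNA, on the higher side. At 48 h Cd68 and Tmem119 both lay below 1. The large value at 48 h was thus that of Adgre1 alone. Listed were also 4 of 7 markers of the oligodendrocyte lineage (RNA -0.45 to 1.90 at 24 h in the authors' deposited table), 3 of 6 of neurons (-2.49 to 0.17) and 3 of 5 of endothelium (-1.04 to 1.77). The part of these changes in the ribosomal values was not tested. The values are relative to all RNA or footprints of a library, so fewer cells of a type and less RNA per cell cannot be told apart.

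TOP motifs lie at the 5′ end of the mRNA, and the annotated starts of members were searched for them because they define the class. RefSeq sequences on GRCm38.p6, from 250 bases before to 50 after the start, were available for 24 of 33 members. The search was for a C followed by at least 4 C or T on the gene's strand, starting within 5 bases of an annotated start. A gene with several annotated starts counted if any of them had a tract. Such a tract was present in 12 of these 24 members, against 23.9% of 9368 genes of the table. Of all 27025 genes with such a sequence, 21.2% had one. With at least 7 C or T after the C, 8 of 24 members (33.3%) had a tract, against 5.92% of the genes of the table. Anywhere from 10 bases before to 46 after the start, 22 of 24 members (91.7%) had the shorter form, a share to be read beside 61.9% of the genes of the table. Rps28 and Rps16 had no such tract in this window. Annotated starts can lie some bases away from the start in use. The stretches below are those of the 4 members with the highest and the 4 with the lowest translation efficiency at 48 h among members with a sequence, shown to compare both ends of the range. They are 30 bases long, read 5′ to 3′ on the gene's strand, with a tract in capitals wherever it started in the widest window. For a gene with several annotated starts, the one with the longest tract is shown. The start shown for Rps2 lies inside the gene's RefSeq span, which begins at 24718121.
Rps10 (chr17:27635228-27635257, minus strand): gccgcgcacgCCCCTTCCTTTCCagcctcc
Rps26 (chr10:128626483-128626512, minus strand): gccgccggatCCTCTTTCgagtcttggctc
Rps15 (chr10:80292446-80292475, plus strand): gcagcccgtaCTTCCTTTTCCgagtaaccg
Rps2 (chr17:24720057-24720086, plus strand): agatctcgcgCTTCTTggagcactataaat
Rps24 (chr14:24490666-24490695, plus strand): gcgctggggtCCTTCCTTgcgcgttgatat
Rps15a (chr7:118116128-118116157, minus strand): tttctgccatCTTCCCTCgccggtgagtga
Rps7 (chr12:28635927-28635956, minus strand): cacccacctaCTTCCgctgtccccacctct
Rps6 (chr4:86857349-86857378, minus strand): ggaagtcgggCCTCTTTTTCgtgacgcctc
The marked tract began within 5 bases of the annotated start in 3 of the 4 genes at either end of the range. In Rps15 it began 25 bases and in Rps7 7 bases after the start, so both lay outside the window of 5 bases. The tract of Rps15 was found in the widest window alone, where 61.9% of the genes of the table have one. That of Rps7 lay within 15 bases of the start, where 47.5% of the genes of the table have one. Tracts ran to 13 bases in Rps10 and to 10 bases in Rps6, genes whose translation efficiency values at 48 h were 1.11 and -0.68 in the authors' deposited table.

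In RNA, small subunit genes lay slightly above 0 at both times and none passed the threshold. The median over the 33 members was 0.22 at 24 h (interquartile range over genes 0.01 to 0.48) and 0.29 at 48 h (-0.06 to 0.68), beside -0.03 and -0.02 over all genes. Above 0 were 25 members at 24 h and 24 at 48 h, where 48% and 48.5% of all genes lay above 0. No member was higher or lower by at least 1. Among all genes 7.54% were higher and 9.55% lower at 24 h, and 8.11% and 10.3% at 48 h. Both times were set against the same untreated libraries, which holds for every pair of 24 h and 48 h values below.

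The highest RNA values belonged to genes from both parts of the subunit. Rps27l, a paralog of Rps27 known as a p53 target, stood at 0.74 at 24 h and 0.91 at 48 h in the authors' deposited table. For Rps24, needed for maturation of the small subunit rRNA, the authors' deposited table gave 0.67 and 0.89. Rps25, a head protein that several viral internal ribosome entry sites depend on, was at 0.65 and 0.77 in the same authors' deposited table. These were changes of less than a doubling: the RNA of Rps27l at 48 h was 1.89-fold that of untreated cells.

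A smaller set of 8 members had RNA values below 0 at both times: Rps10, Rps14, Rps15, Rps16, Rps26, Rps29, Rps4l and Rps9. Lowest at 24 h in the authors' deposited table was Rps14, a platform protein at the mRNA exit, at -0.47, with -0.41 at 48 h. Rps29, a small zinc-binding protein of the head, was at -0.38 and then -0.58 in the authors' deposited table. The authors' deposited table placed Rps15, a head protein near the decoding site, at -0.28 and -0.36. Rps4l, an autosomal paralog of the X-linked Rps4x, was at -0.18 at 24 h and lowest of all members at 48 h, at -0.60, in the authors' deposited table.

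**Figure D1:**
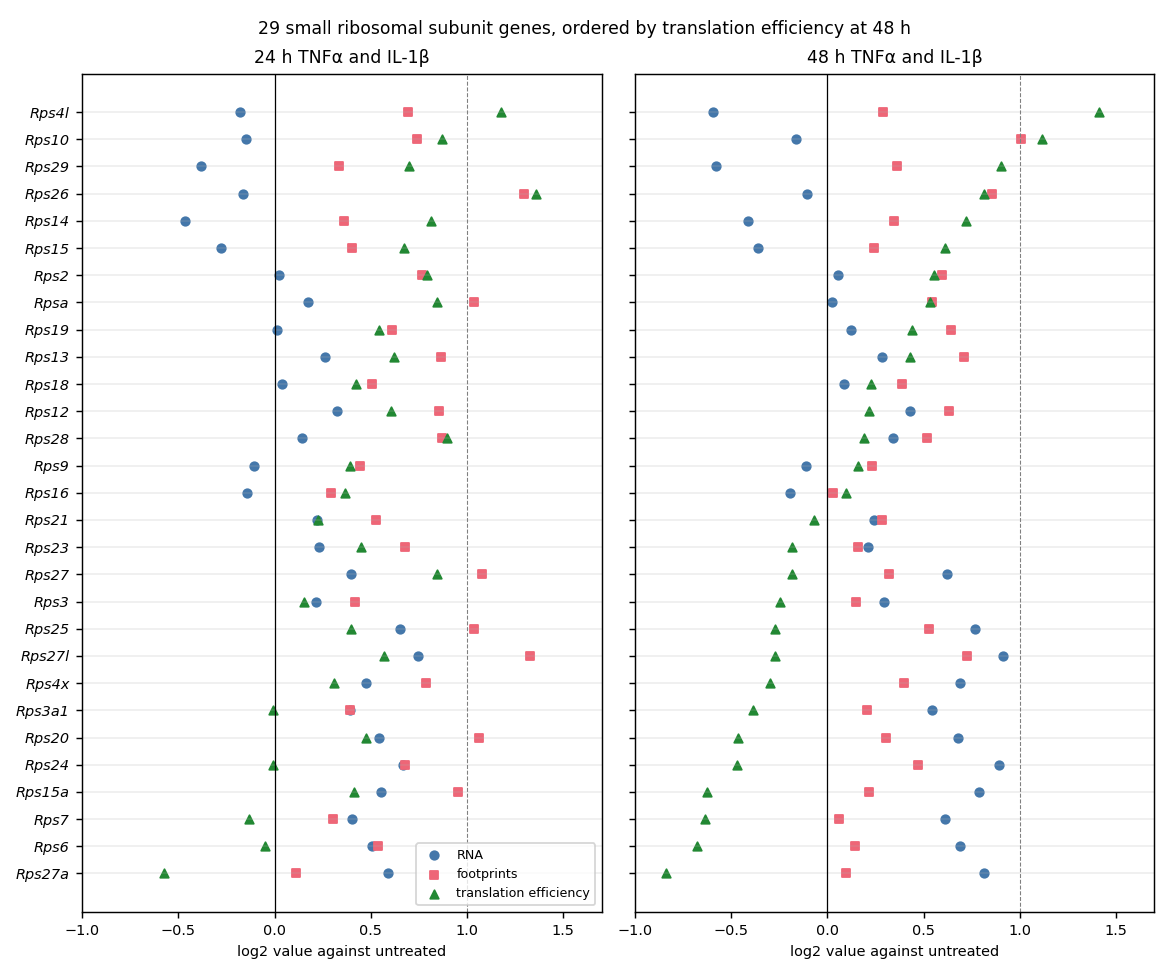
Log2 values against untreated cells (horizontal axis) of RNA (circles), footprints (squares) and translation efficiency (triangles) for 29 of the 33 small subunit genes (rows, ordered by translation efficiency at 48 h), at 24 h (left) and 48 h (right); each point is 1 deposited value and the dashed line marks 1. All footprint values shown lie above 0 at both times, while translation efficiency at 48 h runs between 1.41 and -0.84.

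Footprints of every member lay above 0 at both times. The median was 0.74 at 24 h (interquartile range 0.44 to 0.95) and 0.36 at 48 h (0.21 to 0.60), beside 0.01 over all genes at either time. All 33 members were above 0 at 24 h and at 48 h, where 50.9% and 50.8% of all genes were. At 24 h 8 members were higher by at least 1, against 7.87% of all genes, and 0 were lower, against 8.7%. At 48 h 3 members were higher by at least 1, against 8.13%, and 0 were lower, against 8.71%. The share of members past the threshold at 48 h was thus near that of all genes, while their signs were one-sided.

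Among the 8 members past 1 in footprints at 24 h were Rps20, Rps25, Rps26, Rps27, Rps27l and Rpsa. The authors' deposited table had Rps27l at 1.33 at 24 h, which is 2.51-fold, and 0.73 at 48 h. Rps26, which lines the mRNA exit channel, was at 1.30 and 0.86 in the authors' deposited table. Rps27l (chr9:66944624-66949522) and Rps26 (chr10:128624529-128626506) lie on different chromosomes on GRCm38.p6. Rpsa, also known as the laminin receptor, was at 1.04 and 0.55 in the authors' deposited table. These 6 genes were all below 1 at 48 h.

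Among the 3 members past 1 at 48 h was Rps10, a head protein that is ubiquitinated on collided ribosomes. The authors' deposited table placed it at 0.74 at 24 h and 1.00 at 48 h in footprints, so it went against most members in having the larger value at 48 h.

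At the other end, 3 genes had footprint values close to 0 at 48 h. Rps16, whose protein contacts the tRNA in the peptidyl site, was at 0.29 at 24 h and 0.03 at 48 h in the authors' deposited table. Rps7, whose protein also binds the p53 regulator MDM2, was at 0.30 and 0.06 in the authors' deposited table. Rps27a, which codes for ubiquitin fused to a head protein of the subunit, was at 0.11 and 0.10 in the authors' deposited table, the lowest of all members at 24 h.

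Translation efficiency of most members was above 0 at 24 h and divided at 48 h. The median was 0.54 at 24 h (interquartile range 0.37 to 0.81) and 0.10 at 48 h (-0.28 to 0.55), beside -0.03 and -0.05 over all genes. Above 0 were 28 members at 24 h and 17 at 48 h, where 47.2% and 45.8% of all genes were. At 24 h 3 members were higher by at least 1, against 1.79% of all genes, and 0 were lower, against 1.32%. At 48 h 3 were again higher, against 2.85%, and 0 lower, against 1.71%. Of the 28 members above 0 at 24 h, 17 were above 0 at 48 h and 11 were below. No member went the other way, and 5 were below 0 at both times. The median at 48 h is small against the spread over genes, and it was 0.0296 without Rps4l, so it describes the middle of a divided group.

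Those highest in translation efficiency combined RNA near or below 0 with footprints above 0. Rps26 had the highest value at 24 h in the authors' deposited table, 1.36 (RNA -0.17, footprints 1.30), and stood at 0.82 at 48 h. Rps10 was at 0.87 at 24 h and 1.11 at 48 h in the authors' deposited table. Rps4l had 1.18 and 1.41 in the authors' deposited table, but its footprint minus RNA values fall short of these by 0.30 and 0.53, the largest gaps of any member. The authors' deposited table also kept Rps29 (0.70 and 0.90), Rps14 (0.81 and 0.72) and Rps15 (0.67 and 0.61) above 0.5 at both times. All 3 had RNA values below 0.

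The 5 members below 0 at both times were Rps24, Rps27a, Rps3a1, Rps6 and Rps7. Lowest in the authors' deposited table was Rps27a, -0.58 at 24 h and -0.84 at 48 h, with RNA at 0.59 and 0.81. Rps6, the substrate for which the S6 kinases are named, was at -0.05 and -0.68 in the authors' deposited table. Rps7 was at -0.13 and -0.64 in the authors' deposited table. For Rps24 and Rps3a1 the authors' deposited table had values between -0.01 and 0 at 24 h, and at 48 h it gave Rps24 -0.47 and Rps3a1 -0.38. In these 5 genes footprints were above 0 throughout but at 48 h lay below the RNA values.

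Deposited translation efficiency lay within 0.1 of footprints minus RNA for 28 of 33 members at 24 h and 23 at 48 h (79.5% and 78.0% of all genes). Because it is built from the RNA values, an inverse order of RNA and translation efficiency over members carries no information of its own, so RNA was set against footprints instead. Across the 33 members Pearson's r between RNA and footprints was 0.34 at 24 h (Spearman's rho 0.34) and -0.03 at 48 h (rho -0.02). Across 8229 other genes with RNA values inside the members' range, -0.47 to 0.74 at 24 h, r was 0.52, and across 8722 such genes at 48 h, within -0.60 to 0.91, it was 0.54. Over the 48 large subunit genes r was -0.14 and 0.09. These are descriptions across genes that share the same libraries, and genes are not replicates. The members' standard deviation over genes was 0.44 in RNA and 0.31 in footprints at 48 h, and 0.32 and 0.33 at 24 h. Footprints exceeded RNA in 31 of 33 members (93.9%) at 24 h, against 52.2% of all genes, and in 19 (57.6%) at 48 h, against 50.3%, so that the share at 48 h was near that of all genes.

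**Figure D2:**
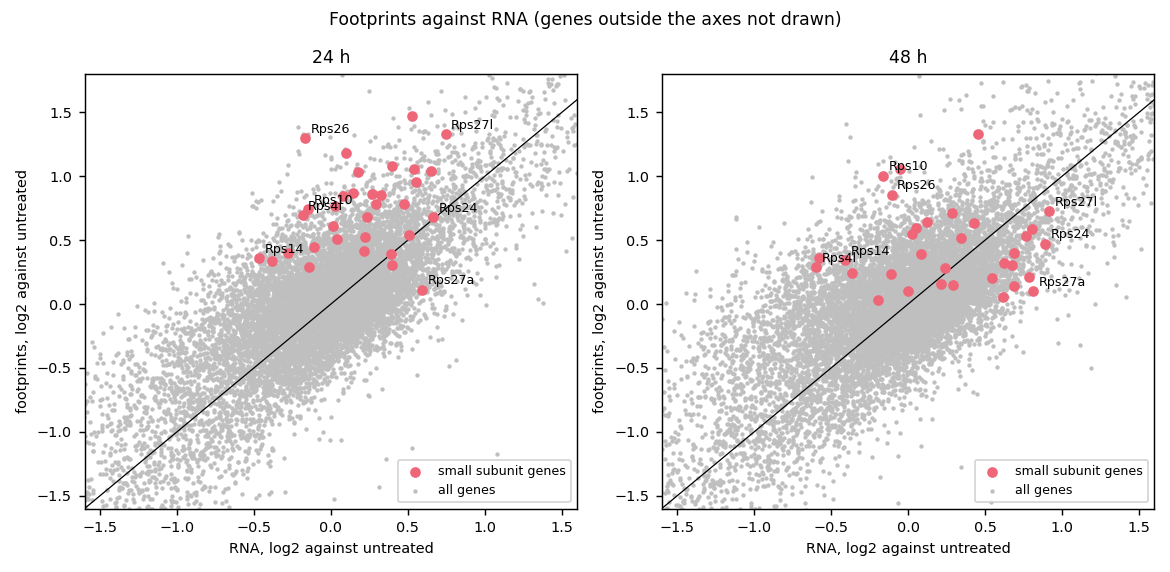
Footprints (vertical axis) against RNA (horizontal axis), both as log2 values against untreated cells, at 24 h (left) and 48 h (right), for small subunit genes (large points) and all genes (small points); the line marks equal values. At 24 h 31 of 33 small subunit genes lie above the line (52.2% of all genes), and at 48 h 19 do (50.3% of all genes), spread in a nearly level band.

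Values at 48 h were next set against those at 24 h. The untreated libraries cancel in this difference if the deposited values are plain log2 ratios, but their formula is not given. RNA of members differed by a median of 0.08, with 23 of 33 above 0, against 49% of all genes. Footprints differed by a median of -0.24, with 29 of 33 below 0, against 49.4%, and translation efficiency by -0.38, also with 29 below 0, against 48.3%. The medians over all genes were within 0.01 of 0 in all 3 measures. In most members RNA was thus higher, and footprints were lower, at 48 h than at 24 h. The large subunit genes gave similar medians of 0.09, -0.24 and -0.39.

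Single genes differed more widely. In 3 members translation efficiency at 48 h was lower than at 24 h by more than 1 on the log2 scale, against 0.647% of all genes. Rps15a, a body protein, was one of them at -1.04, and Rps27, a zinc-binding platform protein, another at -1.03. Among the 4 genes with more footprints at 48 h were Rps10 (0.26), Rps19 (0.03) and Rps29 (0.02). All 3 named genes code for head proteins, and Rps19 is the gene most often mutated in Diamond-Blackfan anaemia. Whether 0.03 or 0.02 exceeds the spread between batches could not be tested.

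**Figure D3:**
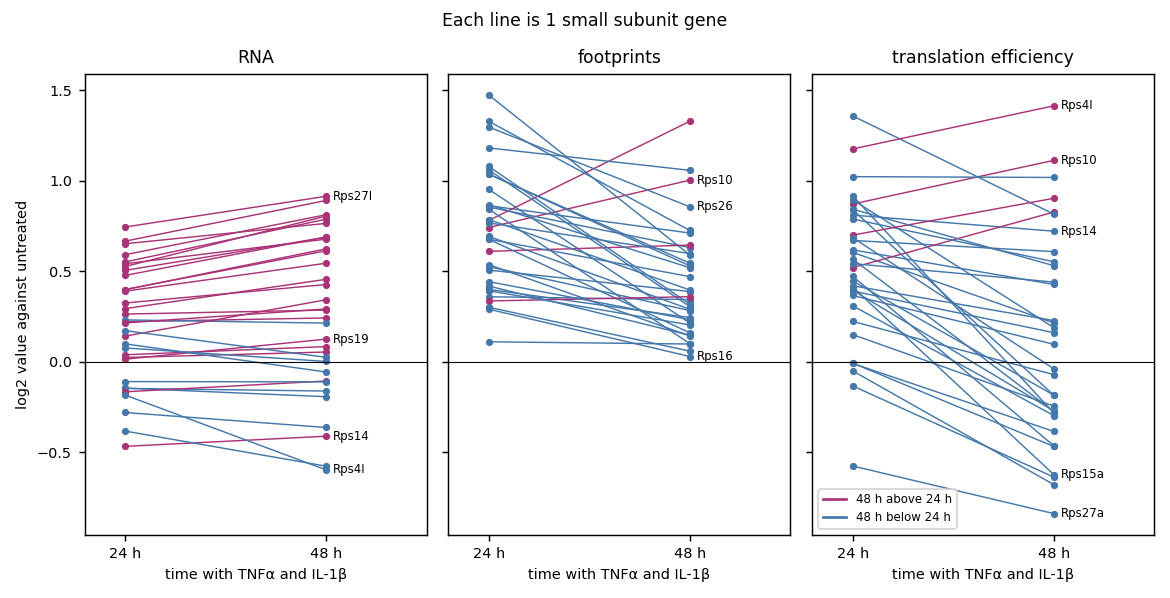
Log2 values against untreated cells at 24 h and 48 h for RNA, footprints and translation efficiency (panels); each line joins the 2 values of 1 small subunit gene, coloured by whether the 48 h value is above or below the 24 h value. In RNA 23 of 33 lines go up, while 29 of 33 go down for footprints and likewise for translation efficiency.

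By place in the subunit, the 14 head genes had footprint medians of 0.68 at 24 h and 0.45 at 48 h, and the 19 genes of the body and platform 0.77 and 0.32. The 48 h minus 24 h footprint difference had a median of -0.14 in the head, with 4 of 14 above 0. In the body and platform it was -0.39, with 0 of 19 above 0. Of all genes 50.6% were above 0 in this difference. Translation efficiency at 48 h had medians of 0.22 and -0.18. Above 0 were 10 of 14 head genes (71.4%) and 7 of 19 others (36.8%), where 45.8% of all genes were. By evolutionary class, the 15 proteins with bacterial counterparts had RNA medians of 0.10 and 0.05, and the 18 without one 0.36 and 0.50. Their footprint medians were 0.68 and 0.34, and 0.76 and 0.43. None of these divisions was tested, and they are descriptions over genes.

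Around the path of the mRNA, 7 measured members lie at the entry or exit channel, and all 7 were above 0 in translation efficiency at 24 h (median 0.81), with 5 above 0 at 48 h (median 0.55). These counts stand beside 28 and 17 of all 33 members and 47.2% and 45.8% of all genes, so the 24 h count is close to that of the members as a whole. At the entry, the authors' deposited table had Rps2 at 0.79 and 0.55, and Rps3 at 0.15 and -0.24. Rps3 is also known as a partner of the NF-kB subunit p65, and its RNA in the authors' deposited table was 0.21 at 24 h and 0.29 at 48 h. At the exit, Rps28 was at 0.90 and 0.19 in the authors' deposited table, beside Rps14 and Rps26 above. Near the decoding centre, the translation efficiency of Rps23 was 0.45 and -0.18 in the authors' deposited table. The 4 proteins that are ubiquitinated on stalled ribosomes (Rps2, Rps3, Rps10 and Rps20) parted at 48 h. The authors' deposited table had Rps10 at 1.11 and Rps20 at -0.46.

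Footprint values of Rps3a1, Rps9, Rps18, Rps21, Rps6, Rps12, Rps13, Rps4x and Rps15a, not given above, ranged from 0.39 to 0.95 at 24 h in the authors' deposited table. Of these, the authors' deposited table put Rps13 (0.71) and Rps12 (0.63) highest at 48 h. Rps4x, the X-linked member, was at 0.79 and 0.40 in the authors' deposited table.

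Both subunit proteins that the symbol rule misses were also measured. The translation efficiency of Rack1, a signalling scaffold on the head, was 0.76 and 0.43 in the authors' deposited table. Fau, which codes for a ubiquitin-like protein fused to a body protein, was at -0.24 and -1.01 in the authors' deposited table, with footprints of -0.03 and -0.74. Fau, at 48 h, thus lay below every member in both measures, although its footprints minus RNA came to -0.68 there, short of the deposited translation efficiency. By footprints minus RNA at 48 h Rps27a was lower than Fau, at -0.71. Rps27a and Fau are the genes of the small subunit whose product is a fusion with ubiquitin or a relative. Both were below 0 in translation efficiency at both times, but so were Rps24, Rps3a1, Rps6 and Rps7, which are not such fusions.

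Other genes of translation were then looked at, and the footprint and translation efficiency medians nearest to those of the small subunit were those of the large one. In RNA at 48 h the assembly and initiation factors (0.28 and 0.26) were nearer to the small subunit (0.29) than the large one was (0.34). The 48 large subunit genes had footprint medians of 0.64 and 0.39 and translation efficiency medians of 0.49 and 0.10, with 7 of 48 higher by at least 1 in translation efficiency at 24 h, and 5 higher and 1 lower at 48 h. Among those past 1 in either direction, at either time, were Rpl13a, Rpl18, Rpl19, Rpl23a, Rpl36, Rpl37a, Rpl8, Rplp1 and Rplp2. The authors' deposited table had Rplp2 at 1.42 at 24 h, and Rpl13a at -1.54 at 48 h. The 12 other TOP mRNAs, of which 5 code for elongation factors (Eef1a1, Eef1b2, Eef1d, Eef1g and Eef2), had medians of 0.55 and 0.42 in footprints, and of 0.20 and -0.09 in translation efficiency. At 24 h the authors' deposited table had Eef1b2, a subunit of the elongation factor exchange complex, highest in translation efficiency among them (0.73), and Tpt1, the translationally controlled tumour protein, lowest (-0.61). For the 27 initiation factors that bind the small subunit, translation efficiency medians were -0.06 and -0.16, and Eif3i alone passed 1, at 1.04 at 48 h in the authors' deposited table.

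Of 45 assembly factors of the small subunit, RNA medians were 0.35 and 0.28, footprint medians 0.27 and 0.24, and translation efficiency medians -0.14 and 0.00. Their extremes in translation efficiency at 24 h in the authors' deposited table were Imp4 (0.52) and Utp6 (-0.74), both of the processome that assembles on the nascent rRNA. In the mTOR and S6 kinase pathway (26 genes) the medians lay between -0.07 and 0.05 in all 6 comparisons. There the authors' deposited table had RNA values of 0.25 and 0.35 for Rps6kb1, which codes for an S6 kinase, and of -0.87 and -0.86 for Mtor. Larp1 had translation efficiency values of -0.09 and -0.03 in the authors' deposited table. Its extremes in translation efficiency at 24 h in the authors' deposited table were Mlst8, an mTOR partner (0.94), and Rps6ka4 (-0.74). The 22 sensors and enzymes of collided ribosomes had translation efficiency medians of -0.13 and -0.15. Zfp598, the ligase that ubiquitinates Rps10, was highest among them at 0.83 in the authors' deposited table, and Nemf lowest at -0.71. Of 32 genes for the mitochondrial small subunit the medians were 0.16 and 0.15, with Mrps34 at 1.81 at 24 h in the authors' deposited table. Its footprints minus RNA came to 0.93, a larger shortfall than that of Rps4l. Lists were described and not tested, and no list can be called particular from these medians.

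**Figure D4:**
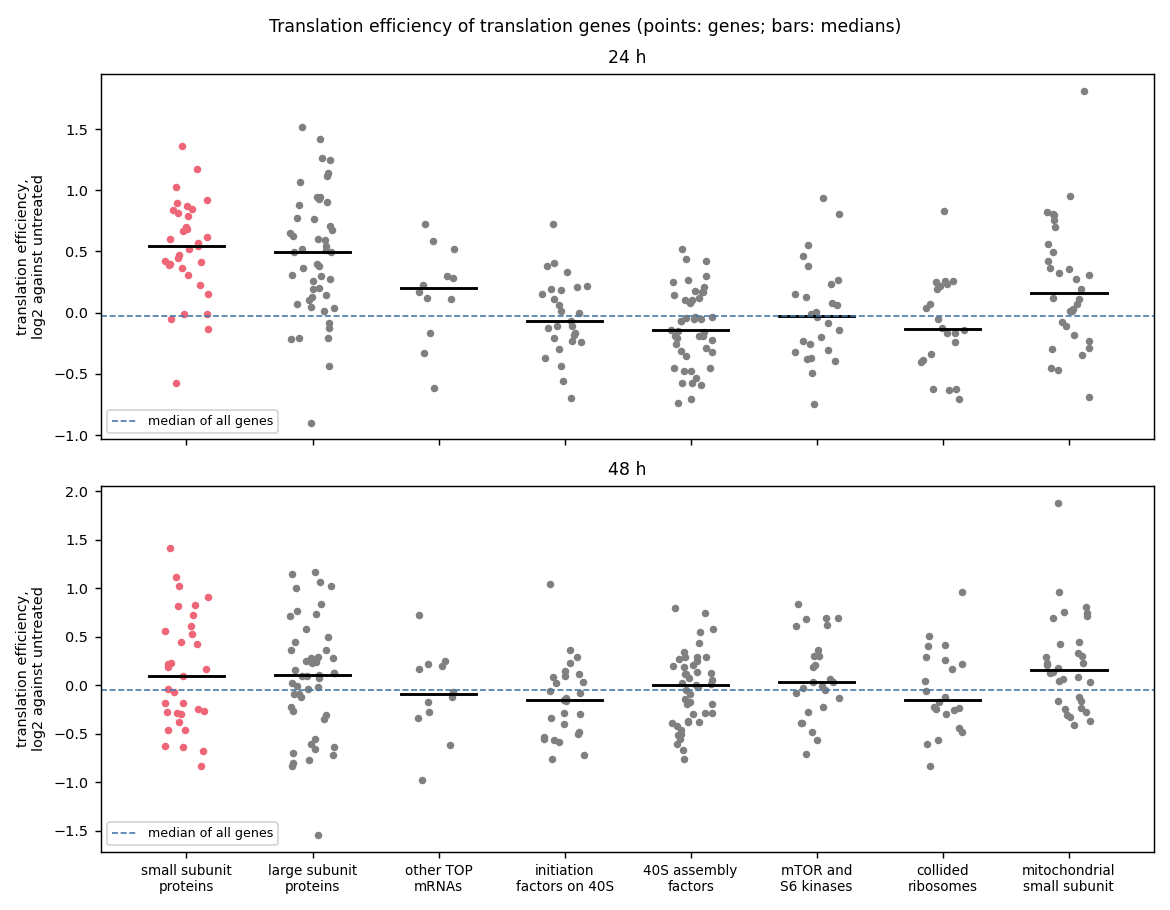
Translation efficiency as log2 values against untreated cells (vertical axis) at 24 h (top) and 48 h (bottom) for the small subunit genes and 7 lists of other translation genes; points are genes, bars their medians, and the dashed line is the median of all genes. The small and large subunit lists have medians of 0.54 and 0.49 at 24 h and of 0.10 each at 48 h.

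The authors' deposited sheet for small subunit assembly holds 16 genes, of which 9 (56.2% of the sheet and 27.3% of the 33) are members and 7 are not: Abt1, Eral1, Mrps7, Mrps11, Pwp2, Rpl38 and Rrp7a. For that set the authors' deposited table of p-values gives, at 24 h, 0.38 for RNA, 3e-05 for footprints and 1e-06 for translation efficiency, and at 48 h 0.8, 0.0001 and 0.0001, by a test the sources used here do not give. At 24 h the translation efficiency medians were 0.54 in the members and 0.57 in the set. At 48 h the median was 0.10 in the 33 members and 0.57 in the set. The 9 members on the sheet had a median of 0.61 at 48 h, and the 24 members not on it had -0.13, with 10 of 24 above 0.

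Among the members that the authors' deposited table of p-values gives as examples at 24 h are Rps10 and Rpsa. It describes the footprint value of Rpsa as a 204% increase beside a log2 value of 1.04, which is 2.05-fold, or 105% above untreated cells. For Rps10 it has a 76% increase beside 0.74, whereas the value in the authors' deposited table corresponds to 67.3%. The log2 values themselves were the same in both places.

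Many members share sequence with copies elsewhere, and 24 of 33 have at least 1 pseudogene named after them in RefSeq, up to 23 for Rps12. The sources used here do not say how reads from such copies were assigned, so single values, above all those of the pairs Rps4x with Rps4l and Rps27 with Rps27l, are uncertain to that extent. Over the 33 members, gene span correlated with translation efficiency at rho = -0.35 at 24 h and -0.30 at 48 h with RNA at 0.32 and 0.33, and with footprints at -0.0013 and 0.10, given as a description without a test.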

How the data were processed

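The submitters' processing notes name TopHat2, featureCounts and the mm10 build, without versions. The normalization, the pooling of batches and the formula of the fold changes are not given in the sources used here. Per the labels' protocols the RNA libraries used a stranded total RNA kit, while the molecule label reads polyA RNA. The authors deposited log2 fold changes against untreated cells, 1 per gene and comparison, and translation efficiency without a named scale, read as log2 because it lies near footprints minus RNA. The authors also deposited signed scores, read as set p-values. With no values per library, no test across batches was possible, and depth, precision and batch spread are unknown.

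All 33 members matched gene identifiers by name and RefSeq positions on GRCm38.p6. No filter was applied. Medians, interquartile ranges and counts past 1 were computed with pandas 2.3.3 over members and beside all 12205 genes, and TOP tracts were searched in RefSeq sequences. The functions were tested on simulated data. Any member could be named, with the 3 highest and 3 lowest per comparison given, and, per list of other genes, those past 1 in translation efficiency or its extremes. The members and lists were chosen with earlier results of these data known. Protein sequences were not used here, so the planned look at protein length was left out, and gene span was added later. The values of 4 members and of 1 large subunit gene are not reported here one by one, but they enter all counts and medians.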

Additional observations from a re-analysis of the deposited data

How the results depend on the processing

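No paired analysis was possible because the authors deposited 1 combined value per gene and comparison, and leaving out a replicate was not possible for the same reason. Medians and counts were called unmoved within 1.5 times. Of 134 values under alternatives, 105 were unmoved, 25 moved and 4 changed sign. With the 16 genes of the authors' sheet in place of the symbol rule, the RNA median was 0.0795 at 24 h and -0.0613 at 48 h. The 48 h minus 24 h medians of the sheet were -0.0488 for RNA, -0.0362 for footprints and 0.0605 for translation efficiency. At 24 h 4 of its 16 genes passed 1 in footprints, against 7.87% of all genes, and 1 of 16 in translation efficiency, against 1.79%. Counts were compared without regard to the size of the set, so a smaller set alone can move them. The translation efficiency median at 48 h was the least stable: 0.15 after centring on all genes, 0.22 without the 11 members whose values add up less well than 0.1, 0.57 on the authors' sheet, -0.13 in the 24 members not on it, 0.0296 without Rps4l and 0.18 as footprints minus RNA. Of those 24 members 4 at 24 h and 0 at 48 h passed 1 in footprints, against 7.87% and 8.13% of all genes. In translation efficiency at 48 h 1 of the 24 did, against 2.85%. Without the 11 members whose values add up less well, 1 passed 1 in translation efficiency at 24 h, against 1.79% of all genes. At a threshold of 0.5 the counts were 8 and 12 for RNA, 24 and 13 for footprints, and 18 and 10 for translation efficiency at 24 h and 48 h, beside 14.8% and 16.5%, 17.2% and 17.7%, and 12% and 14.5% of all genes, and at 1.5 they were 0 in footprints and translation efficiency. The share of members with a TOP tract was 33.3% with the longer tract and 91.7% in the widest window. The alternatives of members not on the sheet, without Rps4l and the widest window were chosen after seeing the data. Other causes were not tested.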
